A study of Homo sapiens with 4 samples.

Results

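The 10 genes described here are SNAI1, SNAI2, TWIST1, TWIST2, ZEB1, ZEB2, CDH1, CDH2, CDH11 and VIM, taken by name from a deposited table of read counts for 58676 genes in U2OS cells. They encode the transcription factors best known for driving the epithelial-to-mesenchymal transition (EMT), the 3 cadherins usually read out with it, and the intermediate filament protein vimentin. U2OS is an established human osteosarcoma cell line, a tumour line of the bone lineage. RNA was sequenced from 4 libraries, 2 from cells given a single-domain antibody (sdAb) against MN1 and 2 from cells given a control sdAb. An sdAb is an antibody fragment of a single variable domain, and MN1 is a transcriptional coregulator. Both groups were the same line grown in the same serum-containing medium, per the labels. How much sdAb was given, for how long and by which route is not stated in the sources used here. Nor is it stated whether replicate libraries came from separate cultures, so the p-values reflect only the spread among these libraries, possibly a technical one.

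In EMT, epithelial cells give up the junctions that hold them in a sheet and take on a migratory, mesenchymal form. SNAIL (SNAI1) and SLUG (SNAI2) are zinc finger repressors, ZEB1 and ZEB2 are zinc finger and homeodomain repressors, and TWIST1 and TWIST2 are basic helix-loop-helix (bHLH) factors. SNAIL, SLUG and the ZEB proteins bind E-box motifs and repress the E-cadherin gene CDH1. Loss of E-cadherin with gain of N-cadherin (CDH2) is called the cadherin switch. Osteosarcoma cells are mesenchymal by lineage, and CDH11 is known as osteoblast cadherin.

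The libraries held 15740268 to 16816893 counts. At this depth 3 counts correspond to 0.174 to 0.194 CPM (read counts scaled to library size), the limit that a count of 0 allows for counting error. Replicates differed by more than sampling noise (chi-square per degree of freedom 2.01 for anti-MN1 and 2.29 for control), so all 4 were kept. Of the bone markers, RUNX2, the osteoblast transcription factor gene, stood at 21.1 and 17.2 CPM in anti-MN1 libraries and 34.9 and 33.8 CPM in control libraries, while the osteoblast genes SP7 and IBSP had no count in any library. The 6 blood markers summed to 0.959 and 0.581 CPM in anti-MN1 libraries and 0.682 and 1.39 CPM in control libraries, with CD3E and HBB at 0.

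Of the 10 genes, 5 rose and 1 fell in anti-MN1 cells relative to control cells. TWIST2 and ZEB2 showed the clearest rises, at 1.89-fold and 1.77-fold. SNAI2, ZEB1 and CDH2 rose by smaller amounts, at 1.26-fold, 1.16-fold and 1.09-fold. CDH1 fell, with few reads in either group, and it entered the test only through the control libraries. SNAI1, TWIST1, CDH11 and VIM did not pass the test. Calls came from edgeR's quasi-likelihood test at a Benjamini-Hochberg adjusted p under 0.05. Over all genes, 45.3% of 17524 tested genes were called, 23.7% as higher and 21.6% as lower. A call in either direction was thus common in this comparison, and 6 of 10 is to be read against that share. With upper-quartile scaling 38.0% of the called genes were higher, against 52.3% with the scaling used here (trimmed mean of M values, TMM), so small changes depend on the scaling. The median log2 fold change of the 10 genes was 0.21, against -0.0038 for all tested genes. In bulk RNA, fewer cells expressing a gene and less RNA per cell cannot be told apart.

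**Figure D1:**
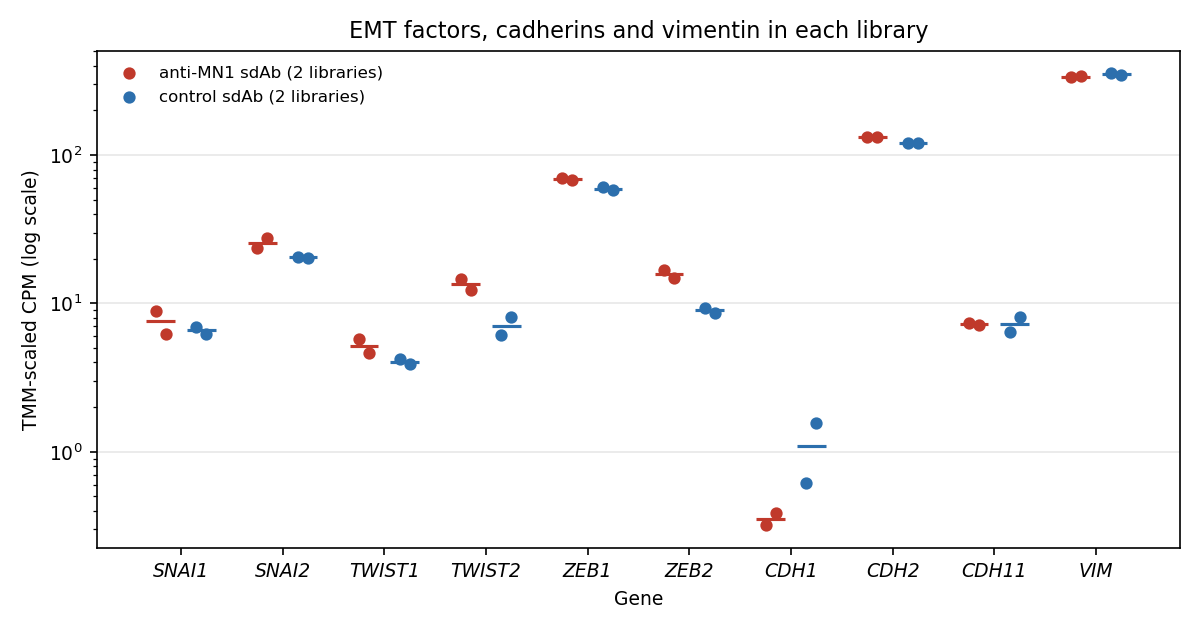
Level of each of the 10 genes in every library, as TMM-scaled CPM on a log axis; points are libraries and short lines are group means (2 libraries each). VIM and CDH2 are the most abundant, CDH1 is the lowest, and TWIST2 and ZEB2 show the widest gaps between groups among the factors.

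For 8 of the 10 genes the libraries of the groups did not overlap, the exceptions being SNAI1 and CDH11. That holds for 70.7% of all tested genes. Of the 10 genes, 9 passed the filter on low counts in every library. CDH1 passed it only through the 2 control libraries, so it could enter the test only by being higher there. Of the 6 called genes 3 changed less than 1.5-fold, and of the 7942 genes called over all genes 62.3% did.

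TWIST2, a bHLH factor of mesenchymal and dermal progenitors, was at 14.6 and 12.3 CPM in anti-MN1 libraries and at 6.14 and 8.05 CPM in control libraries. Both anti-MN1 libraries were above both control libraries. The log2 fold change was 0.92 ± 0.15 (SE) and the edgeR adjusted p was 9.38e-08. TWIST1, its closest relative, was at 5.76 and 4.65 CPM in anti-MN1 libraries and at 4.22 and 3.88 CPM in control libraries. The groups did not overlap, yet the difference did not pass the test, with a log2 fold change of 0.36 and a 95% interval from -0.078 to 0.80 (adjusted p = 0.183). Per length of transcript, TWIST2 was 2.74 and 2.86 times as abundant as TWIST1 in anti-MN1 libraries and 1.58 and 2.25 times in control libraries. Whether the TWIST2 and TWIST1 changes differ from each other was not tested.

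ZEB2 was at 16.8 and 14.9 CPM in anti-MN1 libraries and at 9.37 and 8.57 CPM in control libraries. The groups were well apart, and the libraries of a group lay close together. Its log2 fold change was 0.82 ± 0.14 (SE) and the edgeR adjusted p was 9.96e-08. ZEB1 was at 70.5 and 67.5 CPM in anti-MN1 libraries and at 61.0 and 57.9 CPM in control libraries. This was a small shift that separated the groups, with a log2 fold change of 0.22 ± 0.06 (SE) and an adjusted p of 0.00271. The call of ZEB1 was lost with upper-quartile scaling (adjusted p = 0.0846), with no scaling beyond the total count and with DESeq2 (adjusted p = 0.0524). Without control replicate 2 the log2 fold change of ZEB1 was 0.18, and the call was also lost. Per length, ZEB2 remained the minor partner at 0.0820 and 0.0763 of the ZEB1 level in anti-MN1 libraries and 0.0530 and 0.0511 in control libraries. ZEB2's exon length of 25058 bases, from merging all its annotated transcripts, weighs on this ratio.

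The sequences just before the start sites of these rising factors are shown because SNAIL, SLUG and ZEB proteins are known to bind the E-box CAGGTG, which reads CACCTG on the other strand. Each is the 250 bases before a start site, 5′ to 3′ on the gene's strand, from RefSeq on GRCh38.p14, and capitals mark CAGGTG or CACCTG. RefSeq windows were matched for 5 of the 10 genes (TWIST2, ZEB1, ZEB2, CDH2 and VIM). ZEB1 is at chr10:31318966-31319215 on the plus strand, ZEB2 at chr2:144520120-144520369 on the minus strand and TWIST2 at chr2:238847835-238848084 on the plus strand.
ZEB1: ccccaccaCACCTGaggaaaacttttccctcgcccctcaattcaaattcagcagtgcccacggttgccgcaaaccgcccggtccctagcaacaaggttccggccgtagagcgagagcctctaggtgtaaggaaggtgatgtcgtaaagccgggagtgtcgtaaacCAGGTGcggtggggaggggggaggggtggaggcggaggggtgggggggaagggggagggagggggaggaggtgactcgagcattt
ZEB2: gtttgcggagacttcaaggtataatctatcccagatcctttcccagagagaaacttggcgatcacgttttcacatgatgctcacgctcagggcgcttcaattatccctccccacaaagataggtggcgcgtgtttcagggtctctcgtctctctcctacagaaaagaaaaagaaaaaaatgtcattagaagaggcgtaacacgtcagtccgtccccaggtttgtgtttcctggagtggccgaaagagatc
TWIST2: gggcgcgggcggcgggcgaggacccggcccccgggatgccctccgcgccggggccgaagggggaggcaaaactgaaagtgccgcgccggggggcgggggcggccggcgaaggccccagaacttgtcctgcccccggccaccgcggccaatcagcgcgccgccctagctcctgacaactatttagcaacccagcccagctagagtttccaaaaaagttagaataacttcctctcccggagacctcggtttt
RefSeq lists 7 windows for ZEB1, of which 2 held the motif. The window shown is printed because it has the most matches, and it holds the motif 2 times, first CACCTG and then CAGGTG. Of 35116 RefSeq windows of this length, 17.5% held the motif on either strand at least once and 2.53% held it 2 or more times. These shares are per window and do not allow for picking the ZEB1 window with the most matches among 7. The other ZEB1 window with a match held it once, and the rest held none. The windows of ZEB2 and TWIST2 held none, nor did those of CDH2 and VIM. These matches are letters in a window, and binding was not measured.

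SNAI2 was at 23.7 and 27.6 CPM in anti-MN1 libraries and at 20.7 and 20.2 CPM in control libraries. The control libraries were almost equal, and both anti-MN1 libraries were higher. The log2 fold change was 0.33 ± 0.10 (SE) and the edgeR adjusted p was 0.00463. Without anti-MN1 replicate 2 it was 0.22 and no longer passed (adjusted p = 0.154), and it did not pass with DESeq2 (adjusted p = 0.0770). SNAI1 was at 8.89 and 6.27 CPM in anti-MN1 libraries and at 6.95 and 6.25 CPM in control libraries. One anti-MN1 library matched the controls and the other stood above them, so the groups overlapped. Its log2 fold change of 0.20 had a 95% interval from -0.16 to 0.56 (adjusted p = 0.384), and without anti-MN1 replicate 1 it was -0.07.

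Taking the 6 factors per length, as TPM computed from the counts and exon lengths, their sum was 120 and 110 TPM in anti-MN1 libraries and 89.6 and 89.3 TPM in control libraries. ZEB1 made up 25.7% and 26.8% of that sum in anti-MN1 libraries and 30.7% and 29.2% in control libraries. ZEB1 was the most abundant factor, at 30.2 ± 1.13 TPM in anti-MN1 cells and 26.8 ± 0.974 TPM in control cells (SD, n = 2 each, as for the values that follow). SNAI2 came next, at 28.6 ± 2.91 TPM in anti-MN1 cells and 23.5 ± 0.359 TPM in control cells. TWIST2 followed at 27.0 ± 3.46 TPM in anti-MN1 cells and stood at 14.7 ± 2.80 TPM in control cells. The ranges of ZEB1, SNAI2 and TWIST2 overlapped from one neighbour to the next in anti-MN1 libraries, so their order there is not settled. SNAI1 was at 17.01 ± 4.27 TPM in anti-MN1 cells, below the range of TWIST2, and at 15.3 ± 1.13 TPM in control cells, where the 2 ranges overlapped. TWIST1 was at 9.68 ± 1.51 TPM in anti-MN1 cells and 7.76 ± 0.457 TPM in control cells. ZEB2 was the lowest of the 6, at 2.39 ± 0.211 TPM in anti-MN1 cells and 1.40 ± 0.0874 TPM in control cells.

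**Figure D2:**
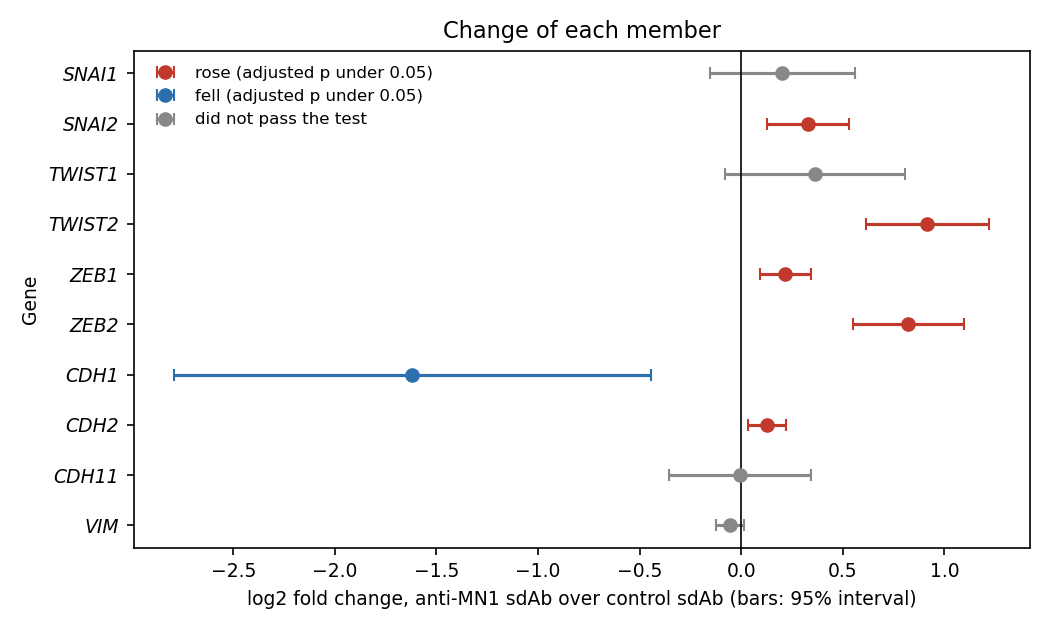
log2 fold change of each gene, anti-MN1 sdAb over control sdAb, with its 95% interval; colour shows the call at an adjusted p under 0.05. TWIST2 (0.92) and ZEB2 (0.82) lie farthest above 0, the interval of CDH1 is the widest, and those of SNAI1, TWIST1, CDH11 and VIM include 0.

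CDH1, the gene of E-cadherin, had 5 and 6 reads in anti-MN1 libraries and 10 and 27 reads in control libraries. This was 0.320 and 0.388 CPM in anti-MN1 libraries and 0.620 and 1.56 CPM in control libraries. The anti-MN1 libraries were lower than both controls, but the controls differed from each other by 1.33 on the log2 scale. Exact Poisson 95% intervals, which cover counting error only, ran from 1.62 to 11.7 and from 2.20 to 13.1 reads in anti-MN1 libraries and from 4.80 to 18.4 and from 17.8 to 39.3 reads in control libraries. The interval of control replicate 1 overlapped those of both anti-MN1 libraries. CDH1 passed the filter on low counts only through the 2 control libraries, so the test of its fall was not independent of the filter. The log2 fold change was -1.62 ± 0.59 (SE) and the edgeR adjusted p was 0.0181. Without control replicate 2 it was -0.80 and did not pass (adjusted p = 0.592). It also did not pass without anti-MN1 replicate 1 (adjusted p = 0.130) or anti-MN1 replicate 2 (adjusted p = 0.0825), nor with DESeq2 (adjusted p = 0.151) or limma-voom (adjusted p = 0.0589). At 0.216 ± 0.0280 TPM in anti-MN1 cells and 0.689 ± 0.421 TPM in control cells (SD, n = 2 each), CDH1 was the lowest of the 10 genes. It lay at percentile 0.82 of the tested genes in anti-MN1 cells and at percentile 3.11 in control cells.

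CDH2, the gene of N-cadherin, was at 131.6 and 132.2 CPM in anti-MN1 libraries and at 120.8 and 120.5 CPM in control libraries. The libraries of a group were nearly equal, and the anti-MN1 pair was slightly higher. The log2 fold change was 0.13 ± 0.05 (SE) and the edgeR adjusted p was 0.0177. The call was lost when any of the 4 libraries was left out (log2 fold changes from 0.13 to 0.14) and with DESeq2 (adjusted p = 0.129). It was also lost with no scaling beyond the total count and with upper-quartile scaling. With upper-quartile scaling the log2 fold change was 0.04 (adjusted p = 0.491). The 27 tested genes within 5 Mb of CDH2 had a median log2 fold change of 0.20. CDH2 therefore did not stand above its neighbours on chromosome 18.

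CDH11, a mesenchymal and osteoblast cadherin gene, was at 7.36 and 7.11 CPM in anti-MN1 libraries and at 6.39 and 8.11 CPM in control libraries. The anti-MN1 values lay inside the control range. Its log2 fold change of -0.0069 had a 95% interval from -0.36 to 0.34 (adjusted p = 0.981 in edgeR). CDH2 dominated the 3 cadherins per length, at 100.7 ± 0.306 TPM in anti-MN1 cells and 95.01 ± 0.134 TPM in control cells (SD, n = 2 each). CDH11 was at 2.04 ± 0.0627 TPM in anti-MN1 cells and 2.11 ± 0.354 TPM in control cells. The ratio of CDH2 to CDH1 per length was 513 and 426 in anti-MN1 libraries and 243 and 96.2 in control libraries. N-cadherin transcripts thus exceeded E-cadherin transcripts in all 4 libraries. CDH2 varied little among them, so the ratio followed the few CDH1 reads.

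VIM, the gene of vimentin and the standard mesenchymal filament marker, was at 336 and 341 CPM in anti-MN1 libraries and at 356 and 348 CPM in control libraries. The anti-MN1 libraries were slightly lower and did not overlap the controls. The log2 fold change was -0.06 with a 95% interval from -0.13 to 0.012 and did not pass (adjusted p = 0.179 in edgeR). With upper-quartile scaling it was -0.14 and passed as lower (adjusted p = 0.000465). VIM was the most abundant of the 10 genes per length, at 247.9 ± 0.986 TPM in anti-MN1 cells and 265.9 ± 4.31 TPM in control cells (SD, n = 2 each). It lay at percentile 96.8 of the tested genes in anti-MN1 cells and at percentile 97.4 in control cells. Genes on the other strand, VIM-AS1 and AL133415.1, overlap 24.4% of its exonic bases. The strand setting of the counting is not given in the sources used here, so reads from that stretch may be lost or shared, and the level of VIM is uncertain. Of the 2 tested antisense RNAs 0 passed in edgeR, 0 at an unadjusted p under 0.05, and 0 passed in DESeq2. VIM-AS1 was at 4.02 ± 0.710 CPM in anti-MN1 cells and 3.24 ± 0.243 CPM in control cells, and ZEB1-AS1 at 4.31 ± 1.21 CPM in anti-MN1 cells and 5.57 ± 1.13 CPM in control cells (SD, n = 2 each).

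On GRCh38, TWIST2 is at chr2:238848032-238910543 (plus strand), ZEB2 at chr2:144364364-144524583 (minus strand), ZEB1 at chr10:31318495-31529814 (plus strand) and VIM at chr10:17228259-17237593 (plus strand). SNAI2 is at chr8:48917604-48921740 (minus strand), SNAI1 at chr20:49982999-49988886 (plus strand), TWIST1 at chr7:19020991-19117672 (minus strand) and CDH2 at chr18:27950966-28177446 (minus strand). CDH1 at chr16:68737225-68835548 (plus strand) and CDH11 at chr16:64943753-65126112 (minus strand) are both on chromosome 16. TWIST2 rose in a region whose 60 other tested genes within 5 Mb had a median log2 fold change of -0.11. Of them 6 were higher and 15 lower, where 23.7% of all tested genes were higher and 21.6% lower. The 11 tested neighbours of ZEB2 had a median of 0.07, with 2 higher and 1 lower. The 14 tested neighbours of SNAI2 had a median of -0.10, and the 43 of ZEB1 a median of 0.0012. These factors were picked because they rose, so lying above regional medians near 0 follows from that choice. Whether the regions played a part was not tested.

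Likeness of profile was measured as the Euclidean distance of log2 CPM over the 4 libraries, each gene centred on its own mean, among 11745 other genes whose mean reached 5 CPM. The nearest genes to ZEB2 were SERPINB7 (distance 0.014), RFTN1 (0.050) and GATA6 (0.061). The nearest to TWIST2 were ZIC2 (0.050), CEBPB (0.057) and XK (0.12). The nearest to ZEB1 were ACAP2 (0.0051), UBE2O (0.0083) and ALG2 (0.015). With 4 libraries these distances mostly reflect the size of the group difference.

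Each list below was counted in the same comparison, in which 45.3% of all tested genes were called, 23.7% as higher and 21.6% as lower, and no list was tested as a set. Of 12 other transcription factors linked to EMT, 10 were tested, 6 rose and 1 fell, with a median log2 fold change of 0.37. PRRX1, a homeobox factor of mesenchyme, rose 1.78-fold to 13.6 ± 0.913 CPM in anti-MN1 cells, against 7.65 ± 0.416 CPM in control cells. SIX2, a homeobox factor, rose 1.70-fold and FOXQ1, a forkhead factor, 1.57-fold. SOX4, an HMG-box factor, fell to 74.4 ± 1.11 CPM in anti-MN1 cells, against 94.7 ± 1.79 CPM in control cells (SD, n = 2 per group throughout).

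TWIST proteins act as dimers with E proteins and compete with ID proteins for them. Of the 7 genes on this list 2 rose and 3 fell, with a median log2 fold change of 0.010. TCF4, an E protein gene, fell to 12.5 ± 0.549 CPM in anti-MN1 cells, against 32.0 ± 0.978 CPM in control cells, a 2.55-fold lower level. TCF3 and TCF12, the other E protein genes, did not pass, at log2 fold changes of 0.03 and 0.01, and both are named here with their values known. ID3, an inhibitor of DNA binding, rose 1.46-fold to 373 ± 4.44 CPM in anti-MN1 cells, against 256 ± 9.98 CPM in control cells. ID1 rose 1.13-fold, and ID4 was 2.07-fold lower at 9.54 ± 0.251 CPM in anti-MN1 cells, against 19.7 ± 3.95 CPM in control cells. ID2, also named with its value known, was 1.36-fold lower in anti-MN1 cells.

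SNAIL and ZEB proteins repress through corepressors, of which 6 of 10 genes rose and 3 fell, with a median log2 fold change of 0.13, where 23.7% of all tested genes rose and 21.6% fell. With upper-quartile scaling 1 rose, and with DESeq2 3 rose. KDM1A, the histone demethylase LSD1, rose 1.24-fold to 184 ± 2.30 CPM in anti-MN1 cells, against 149 ± 9.54 CPM in control cells. The LIM-domain genes WTIP and AJUBA and the corepressor scaffold gene SIN3A were lower, at log2 fold changes of -0.52, -0.20 and -0.20. LIMD1, another LIM-domain gene, was higher at 0.20 and is named with its value known. Without control replicate 1 AJUBA was at -0.12 and did not pass. SNAIL protein is also set by kinases, ubiquitin ligases and stabilising proteins. Of 15 such genes, 4 rose and 3 fell, with a median of 0.010, and with upper-quartile scaling 5 fell. COPS2, a COP9 signalosome subunit gene, rose 1.57-fold to 156 ± 1.54 CPM in anti-MN1 cells, against 99.7 ± 7.62 CPM in control cells. The deubiquitinase gene USP10 rose 1.17-fold. LOXL2, a lysyl oxidase-like gene, and CTDSP1, a small phosphatase gene, fell, at log2 fold changes of -0.43 and -0.28.

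**Figure D3:**
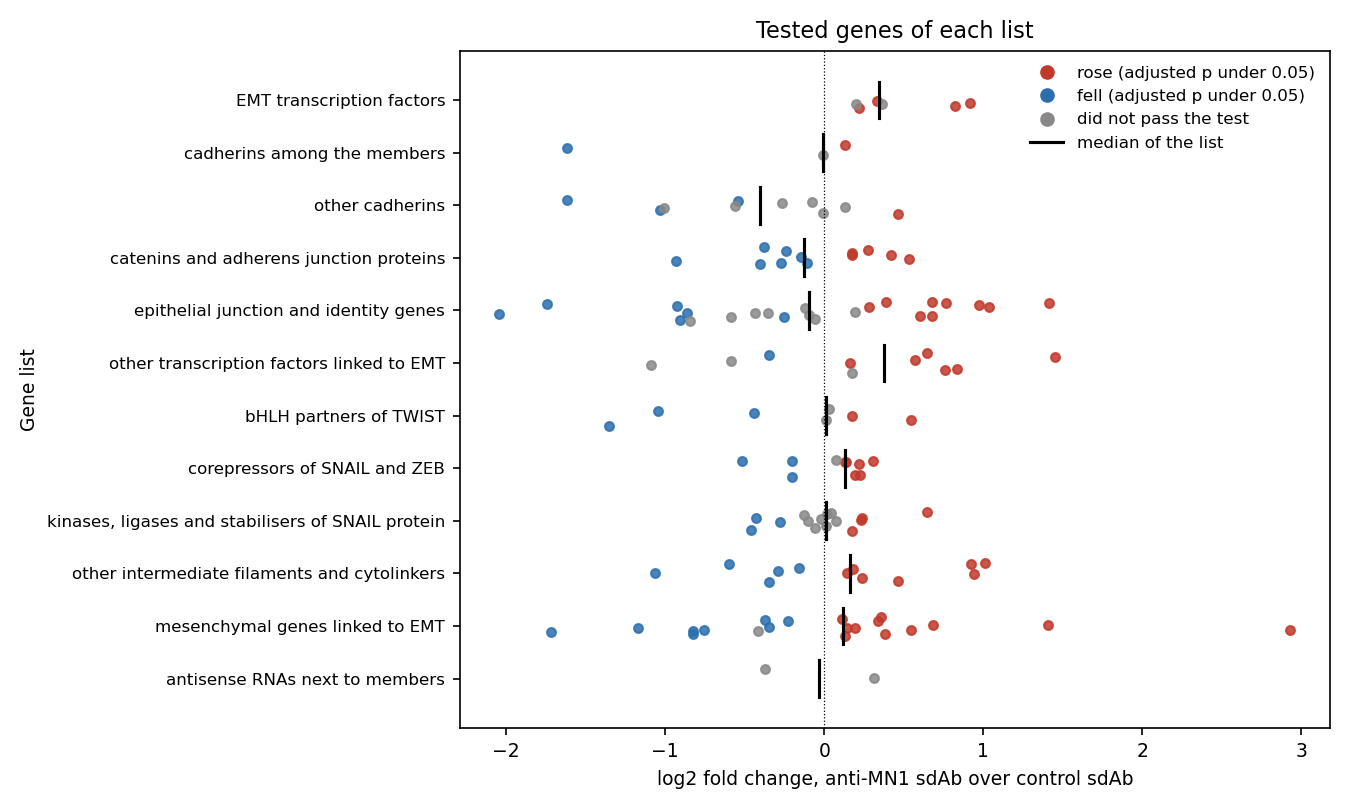
log2 fold change, anti-MN1 sdAb over control sdAb, of each tested gene in the lists around the 10 genes; points are genes coloured by call and black lines are list medians. The EMT transcription factors lie to the right of 0 in this fit, although SNAI1 was at -0.07 without anti-MN1 replicate 1, while the epithelial, catenin and mesenchymal lists spread to both sides.

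Among 20 other cadherin genes, 10 were abundant enough to test, 1 rose and 3 fell, with a median log2 fold change of -0.40. CDH24 was the most abundant of those that changed, at 23.5 ± 2.11 CPM in anti-MN1 cells and 34.2 ± 0.487 CPM in control cells. CDH23, a cadherin known from inner ear hair cells, was 3.07-fold lower at 1.86 ± 0.623 CPM in anti-MN1 cells, against 5.73 ± 0.906 CPM in control cells, with 18.9% of its exonic bases overlapped on the other strand. CDH6 rose to 9.64 ± 0.569 CPM in anti-MN1 cells, against 6.99 ± 0.639 CPM in control cells, and CDH8 fell to 1.12 ± 0.0376 CPM in anti-MN1 cells, against 2.31 ± 0.155 CPM in control cells. CDH6 did not pass with upper-quartile scaling (adjusted p = 0.0506). Neither CDH6 nor CDH8 passed with DESeq2 (adjusted p = 0.134 for CDH6 and adjusted p = 0.125 for CDH8). Without anti-MN1 replicate 1 the adjusted p was 0.112 for CDH6 and 0.0636 for CDH8, and without control replicate 2 it was 0.140 for CDH6 and 0.0583 for CDH8. CDH8 also did not pass without anti-MN1 replicate 2 (adjusted p = 0.0830) or control replicate 1 (adjusted p = 0.127).

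Cadherins act through catenins. Of the 12 tested genes of the catenin and adherens junction list 5 rose and 7 fell, with a median log2 fold change of -0.13, where 45.3% of all tested genes were called. With upper-quartile scaling 5 also rose and 7 fell, and with DESeq2 5 rose and 5 fell. Some of the calls were of small changes, such as those of TJP1 and PKP4, at log2 fold changes of -0.11 and -0.14 and picked with their values known. JUP, plakoglobin, rose 1.45-fold to 163 ± 1.36 CPM in anti-MN1 cells, against 113 ± 0.303 CPM in control cells. VCL, the actin linker vinculin, rose 1.21-fold. ARVCF, a catenin of the p120 family, was 1.91-fold lower at 20.9 ± 2.13 CPM in anti-MN1 cells, against 39.9 ± 3.05 CPM in control cells. AFDN, the nectin-binding afadin, was 1.32-fold lower.

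Epithelial junction and identity genes went both ways, with 9 of 23 tested genes higher and 6 lower of 32 listed, and a median log2 fold change of -0.09, where 23.7% of all tested genes rose and 21.6% fell. MAL2, a membrane trafficking gene of polarised cells, rose 2.66-fold to 34.7 ± 0.530 CPM in anti-MN1 cells, against 13.04 ± 0.341 CPM in control cells. The claudin gene CLDN1 rose 2.05-fold, and the desmosome genes DSP and DSG2 rose 1.70-fold and 1.31-fold. Other desmosome genes of the list went both ways. PKP3 was higher and PKP2 and DSC2 were lower, at log2 fold changes of 0.28, -0.86 and -0.25. The tight junction genes OCLN and CGN, picked with their values known, were lower, at 8.46 ± 1.92 and 14.9 ± 0.968 CPM in anti-MN1 cells, against 15.8 ± 1.11 and 28.2 ± 2.65 CPM in control cells. The tight junction genes CLDN4 and MARVELD2, picked in the same way, were higher, at log2 fold changes of 0.68 and 0.97. The list's lowest fold changes were those of TJP3, a tight junction scaffold gene, and the claudin gene CLDN7, also picked with their values known. TJP3 was at 0.836 ± 0.188 CPM in anti-MN1 cells and 3.46 ± 0.593 CPM in control cells, and CLDN7 at 0.451 ± 0.367 CPM in anti-MN1 cells and 1.52 ± 0.222 CPM in control cells. EPCAM, an epithelial adhesion gene, was at 2.05 and 1.16 CPM in anti-MN1 libraries and at 1.67 and 3.13 CPM in control libraries, and the groups overlapped. The 6 epithelial cell markers summed to 977 and 1002 CPM in anti-MN1 libraries and to 934 and 931 CPM in control libraries. Nearly all of that sum was the keratin genes KRT8, at 807 ± 4.14 CPM in anti-MN1 cells and 776 ± 5.18 CPM in control cells, which did not pass, and KRT18, at 175 ± 13.6 CPM in anti-MN1 cells and 147 ± 0.690 CPM in control cells, which rose. The sum therefore does not describe the other markers. EPCAM, KRT5 and KRT19 were at log2 fold changes of -0.59, -1.37 and -0.35, while that of KRT14 was positive. None of these other markers passed, and the median of the 6 was -0.15. Of the sequence windows of KRT8 and KRT18, 22.1% and 33.4% were found in other genes. KRT8 overlaps 16.3% of the exonic bases of KRT18 on the other strand, so the levels of both are uncertain. The part of these epithelial genes in the changes of the 10 genes was not tested.

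Among 20 mesenchymal genes linked to EMT, 11 rose and 8 fell, with a median log2 fold change of 0.12, where 45.3% of all tested genes were called, and with upper-quartile scaling 7 rose. SPARC, a matrix glycoprotein gene, was at 114 ± 1.39 CPM in anti-MN1 cells and 257 ± 4.44 CPM in control cells. The collagen chain gene COL5A2 was 1.77-fold lower, and PDGFRB, a growth factor receptor gene, was at 7.68 ± 0.00823 CPM in anti-MN1 cells and 25.3 ± 1.49 CPM in control cells. WNT5A, a secreted Wnt ligand gene, rose to 741 ± 15.8 CPM in anti-MN1 cells, against 460 ± 13.1 CPM in control cells. The list's highest fold changes were those of NT5E, the gene of the surface enzyme CD73, and GREM1, a BMP antagonist gene, both picked with their values known. NT5E was at 10.3 ± 1.30 CPM in anti-MN1 cells and 1.35 ± 0.0612 CPM in control cells, and GREM1 at 5.49 ± 0.189 CPM in anti-MN1 cells and 2.07 ± 0.144 CPM in control cells.

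Of 16 other intermediate filament and cytolinker genes, 12 were tested, 7 rose and 5 fell, with a median log2 fold change of 0.16. The neurofilament gene NEFH rose 1.90-fold to 83.0 ± 1.72 CPM in anti-MN1 cells, against 43.8 ± 3.63 CPM in control cells, whereas NEFL was 2.09-fold lower at 19.9 ± 0.952 CPM in anti-MN1 cells, against 41.4 ± 1.14 CPM in control cells. NES, nestin, which assembles with vimentin, fell to 81.8 ± 0.0264 CPM in anti-MN1 cells, against 124 ± 1.81 CPM in control cells. SYNM, synemin, another vimentin partner, rose 1.92-fold, with 27.5% of its sequence windows found in other genes and 27.7% of its exonic bases overlapped on the other strand.

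**Figure D4:**
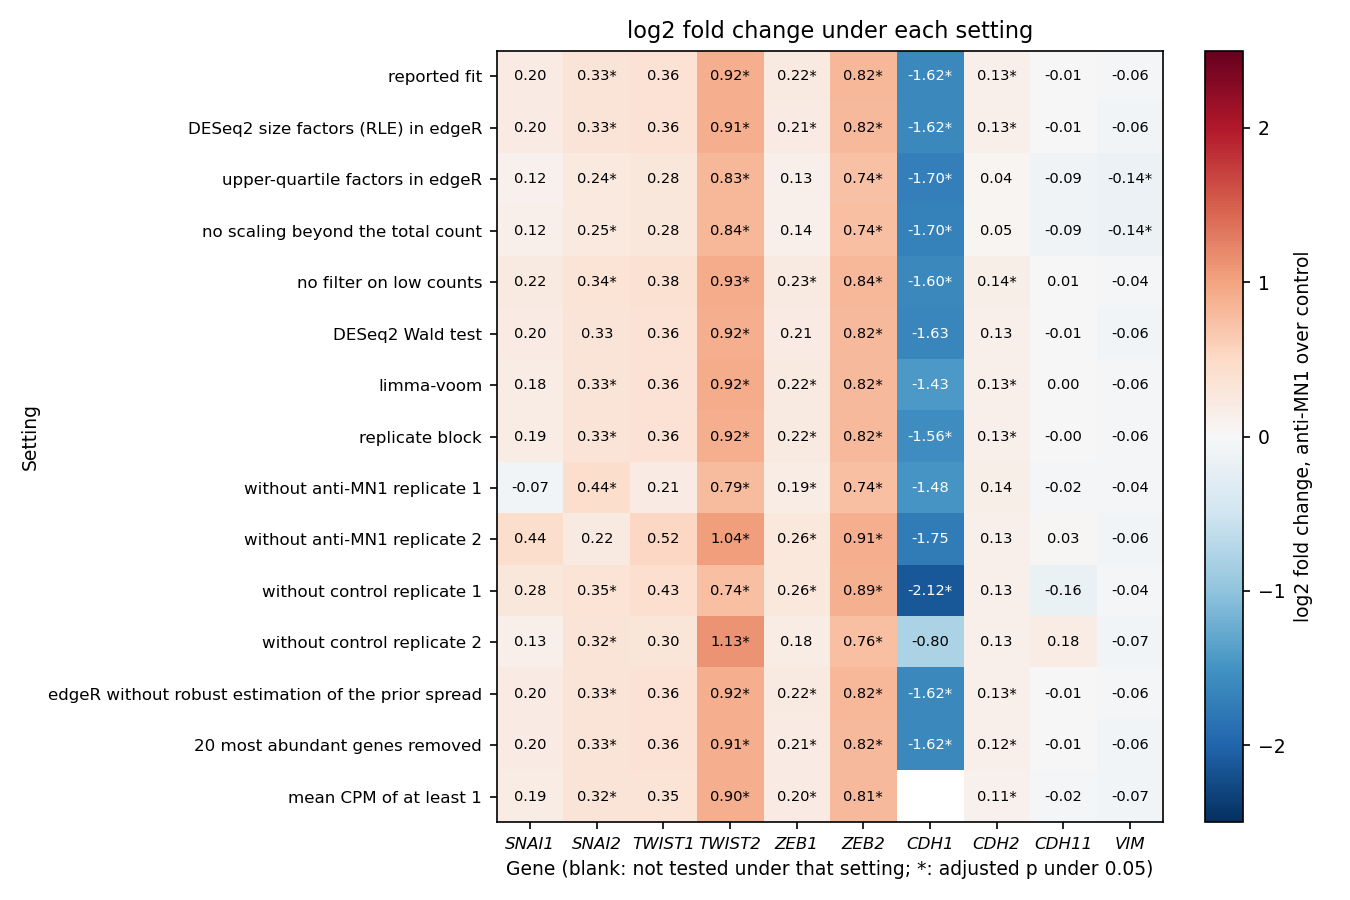
log2 fold change of each of the 10 genes, anti-MN1 sdAb over control sdAb, in the reported fit and under every alternative setting; colour gives the value and a star marks an adjusted p under 0.05. TWIST2 and ZEB2 carry a star in each row, while CDH1, CDH2, ZEB1 and SNAI2 lack one in some rows.

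Across the 14 alternative settings, TWIST2 kept a log2 fold change of 0.74 to 1.13 and ZEB2 of 0.74 to 0.91, and both passed the threshold in each. These were the 2 genes of the 10 that DESeq2 also called.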

How the data were processed

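The deposited file holds raw read counts for each Ensembl gene, with no normalization. Per the submitters' processing notes, Bowtie2, HTSeq and the build hg38 (GRCh38) were used. Their versions, the annotation release and the strand setting were not given in the sources used here. Columns were matched to libraries by group letter and number in the sample titles. Symbols, coordinates and exon lengths came from GENCODE release 29, which holds all 58676 identifiers, and current names. Of 181 listed genes 180 were matched; CDH2-AS1 was not.

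The test was edgeR's (version 4.0.16, under R version 4.3.3), with filterByExpr at a minimum count of 10, which left 17524 genes, TMM scaling, a robust quasi-likelihood fit with no covariate, a 2-sided test and Benjamini-Hochberg adjustment over all tested genes, at 0.05. The spread was shared across genes (median 208.6 prior degrees of freedom), so with 2 libraries per group the p-values rest mostly on it. The edgeR script was also run on simulated counts built from the means, spread and library sizes of these data. That run is therefore no independent check. Standard errors were derived from the fold change and its F statistic. TPM divides counts by merged exon length. Alternatives used DESeq2 (version 1.42.0), limma-voom (limma version 3.58.1), other scalings and filters, a replicate block and each library left out. Each list is given by up to 4 called genes of smallest p. Windows of 50 bases were searched in other genes' transcripts. The genes and lists were chosen with earlier results of these data known, so no list was tested as a set.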

Additional observations from a re-analysis of the deposited data

How the results depend on the processing

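The number of the 10 genes that rose was 5, and 3 with upper-quartile factors or with no scaling beyond the total count, 2 with DESeq2 and 3 to 4 with a library left out. The number that fell was 1 (CDH1), and 2 (CDH1 and VIM) with upper-quartile factors or with no scaling beyond the total count. It was 0 with DESeq2 (0 at an unadjusted p under 0.05), 0 with limma-voom (1 unadjusted), 0 in edgeR with a mean CPM of at least 1, where CDH1 was not tested (1 unadjusted), and 0 to 1 with a library left out. DESeq2 called 2338 genes of the whole table lower, against 3789. With a library left out, 3372 to 3668 genes rose and 2619 to 3017 fell. Upper-quartile factors moved the median of all tested genes to -0.09. The sign of CDH11 turned with no filter on low counts (0.0071) and with limma-voom (0.00092), and its log2 fold change ran from -0.16 to 0.18 with a library left out. That of SNAI1 ran from -0.066 (without anti-MN1 replicate 1) to 0.44. The cause was not tested. TWIST2 and ZEB2 kept direction and call in all 14 settings. Of these, edgeR without robust estimation was added after the data were seen and gave the same 6 calls.

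A replicate block, with numbers shared by the titles only, again called 5 of the 10 genes higher and 1 lower, with 4147 genes higher and 3732 lower overall. The numbers were not taken as pairs because no label says that they pair libraries. Deviations of same-numbered libraries were correlated at -0.03 over 11750 genes. With 5 to 27 reads per library, depth limits CDH1 most.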
